A study of Mus musculus with 11 samples.

Results

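The genes followed here are 49 genes of the cell cycle and of DNA replication, read in sorted mouse epidermal keratinocytes. The choice was by name from textbook knowledge of the cell cycle, with earlier results of these data known. They were 49 of the 24421 genes in the count tables, and all 49 were among the 14045 genes that passed a filter on low counts. By role, 6 control the step from G1 into S phase, 19 act in S phase, 22 act in G2 and mitosis and 2 are inhibitors of cyclin-dependent kinases. RNA-seq was available for 2 WT unwounded, 2 WT wounded, 1 GRHL3 KO unwounded and 2 GRHL3 KO wounded libraries, and ATAC-seq peak lists for 1 library of each of these 4 conditions. The mice were males and females, 8 weeks old, on a background that the labels give as C57BL/6 and the study's methods as C57BL/6J. In the GRHL3 KO animals a Cre driven by the Krt14 promoter, which is active in basal keratinocytes and the cells they give rise to, deleted a floxed Grhl3. The study's methods name the WT littermates Krt14-Cre-WT, which reads as carrying the same Cre, and this was not checked here. Wounded samples came from the margin of punch wounds at day 3 and unwounded samples from unwounded skin, both sorted by flow cytometry for the keratinocyte integrin CD49F and against blood, vessel and erythroid surface markers. The comparisons ask whether genes of cell division differ with wounding and with loss of Grhl3, a transcription factor of epidermal differentiation and repair.

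Dividing cells pass a fixed order of steps. D-type cyclins and then cyclin E with its kinase release E2F factors, which turn on genes for origin licensing, the replication fork and nucleotide synthesis. Genes of G2 and mitosis follow later, and many of them carry a CHR element in their promoters, through which the DREAM complex represses them in resting cells and complexes with B-MYB and FOXM1 activate them in G2, and CCAAT boxes, which the activator NF-Y binds. In the epidermis, division is largely a property of the basal layer and of the hair follicle, while suprabasal cells leave the cycle and differentiate. After a wound, keratinocytes at the front mainly migrate, and division is more prominent behind the front.

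The libraries held between 13497283 and 16807451 counts on genes, and levels are given as CPM, the share of these counts on a scale common to all libraries. At this depth a gene without a count may still be present at up to 0.222 CPM in the shallowest library, a floor that covers counting error only. The labels number the replicates without saying that they are separate animals, so P-values measure only the spread between these libraries.

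Grhl3 itself was read at 122 and 83.2 CPM in WT unwounded, 110 and 90.0 CPM in WT wounded, 76.2 CPM in GRHL3 KO unwounded and 116 and 104 CPM in GRHL3 KO wounded. The libraries labelled GRHL3 KO were thus not set apart by this count. A count summed over the whole gene does not read the deleted stretch by itself, and which exons are deleted was not worked out here, so the genotype is used as labelled and was not checked by it. The study's authors checked the deletion in these mice by qPCR between the loxP sites and by GRHL3 immunostaining, measurements that the deposited files do not hold.

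Keratinocyte identity was clear in every library. The 6 basal markers summed to between 30890 and 44750 CPM, led by Krt14 or Krt5. Leukocyte markers summed to at most 7.07 CPM with Cd3e at 0, and the globin genes Hbb-bs, Hba-a1 and Hba-a2 had no count in any library. Fibroblast markers summed to between 11.04 and 46.63 CPM, hair matrix and shaft markers to between 7.65 and 30.1 CPM, melanocyte markers to between 0.952 and 7.15 CPM and mural markers to between 0.0741 and 18.7 CPM. Endothelial markers summed to 2.26 and 3.27 CPM in WT unwounded, 26.5 and 12.7 CPM in WT wounded, 0.815 CPM in GRHL3 KO unwounded and 10.6 and 10.3 CPM in GRHL3 KO wounded. These vessel transcripts were therefore more abundant in wounded samples but remained a trace beside the keratins.

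The single GRHL3 KO unwounded library stood apart from the other 6. It held 14854 counts of Xist, the RNA of the inactive X chromosome, against 3 to 32 counts elsewhere, and 0 counts over 4 Y-linked genes against 2580 to 3589 elsewhere. It also had the lowest level of all 5 wound keratinocyte markers and the highest level of 4 of 7 suprabasal markers, among them Krt1 (3980 CPM) and Krt10 (4259 CPM), and of 4 of 6 bulge markers, among them Krt15 (4746 CPM). The suprabasal genes Dsc1 and Ivl and the bulge gene Lhx2 were instead below both WT unwounded libraries. Sex, this 1 library and its condition cannot be told apart. Results that rest on it are therefore given as values of this library, and the comparisons in which it is not an arm are also given from fits without it.

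Per length of their exons, the members spanned a wide range. Mki67, which encodes the proliferation antigen Ki-67, averaged 105 RPKM (CPM divided by the exon length in kilobases) over the 7 libraries, and the sliding clamp Pcna and the topoisomerase Top2a followed at 79.5 and 70.6 RPKM. The inhibitor Cdkn1a averaged 57.9 RPKM and cyclin D2, Ccnd2, 46.2 RPKM. In the GRHL3 KO unwounded library the order differed, with Ccnd2 (84.9 RPKM) and Pcna (75.2 RPKM) above Mki67 (48.2 RPKM). The MCM2 to MCM7 helicase subunits lay close to each other, from 27.9 RPKM for Mcm5 to 40.7 RPKM for Mcm3, whereas Mcm10, which joins the helicase later, averaged 4.14 RPKM. Among the G1 cyclins, Ccnd1 averaged 28.6 RPKM and the cyclin E genes Ccne1 and Ccne2 4.37 and 2.21 RPKM. The lowest mean belonged to the licensing factor Cdc6 at 1.59 RPKM.

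The level of each role group was summarised as the mean over its genes of log2(CPM + 1). For the mitotic genes it was 5.77 and 6.35 in the WT unwounded libraries, 5.79 and 5.96 in the WT wounded libraries, 4.83 in GRHL3 KO unwounded and 5.80 and 5.52 in GRHL3 KO wounded. The S-phase genes had levels of 5.65 and 5.99, 5.72 and 5.83, 5.21, and 5.57 and 5.34 in the same order. Both groups were lowest in the GRHL3 KO unwounded library, and the WT replicates overlapped between wounded and unwounded. For the G1/S genes the level stayed between 4.83 and 5.09 in all 7 libraries. Cdkn1a and Cdkn1b, the inhibitors p21 and p27, averaged 6.19 and 6.07 in the WT unwounded libraries, 6.23 and 6.18 in the WT wounded libraries, 6.62 in GRHL3 KO unwounded and 6.40 and 6.31 in GRHL3 KO wounded. In these sorted populations, fewer dividing cells and less RNA per dividing cell cannot be told apart.

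**Figure D1:**
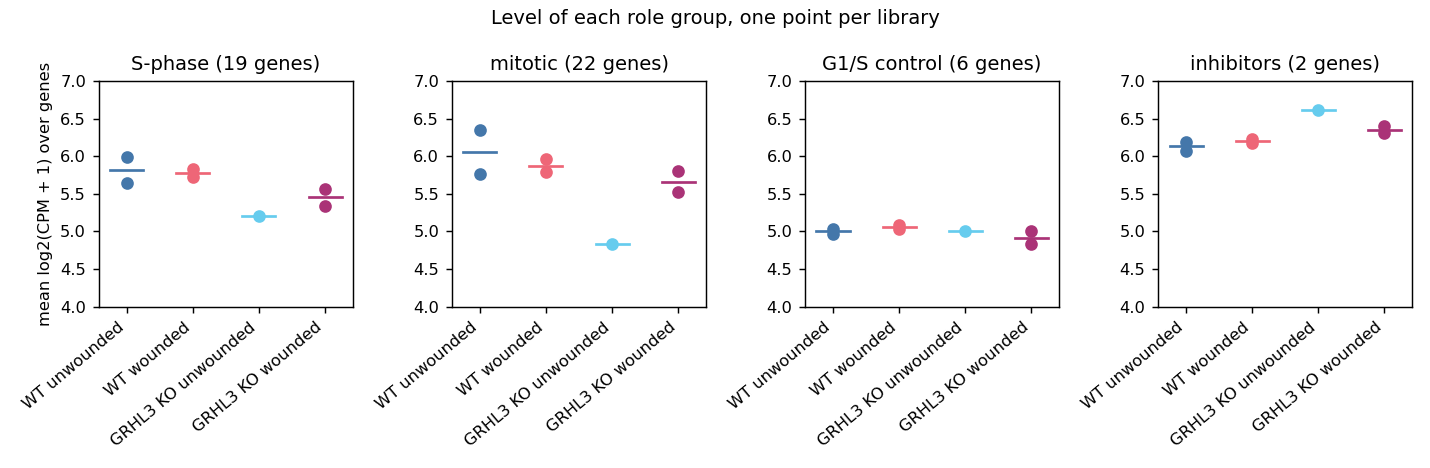
Mean log2(CPM + 1) over the genes of each role group (vertical axis) in the 4 conditions (horizontal axis); each point is a library and each line the mean of its group. The mitotic level of the GRHL3 KO unwounded library is 4.83, below the other 6 libraries, which lie between 5.52 and 6.35.

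In WT keratinocytes, wounded against unwounded, most cell cycle genes had slightly lower values after wounding, and none passed a threshold adjusted for the number of genes. Of the 22 mitotic genes 20 had a negative and 2 a positive log2 fold change, with a median of -0.19, and of the 19 S-phase genes 13 were negative and 6 positive, with a median of -0.06. Over all genes tested the median was 0 and 50.4% were positive. At an unadjusted P under 0.05 (edgeR quasi-likelihood test) 1 member was lower and 0 were higher, where 1.67% of all genes were lower and 3.18% higher, so the members' share was near the background. With the replicate number as a term more members and more of all genes passed, as given under the dependence on processing. No member passed an adjusted p under 0.05, against 4 of all genes (0.0285%), and neither DESeq2 nor the edgeR likelihood ratio test called a member at either threshold, while at an adjusted p under 0.05 DESeq2 called 24 and the likelihood ratio test 49 of all genes. The lowest adjusted p of any member was 0.984 in edgeR. Errors given with a log2 fold change are its absolute value divided by the square root of the F statistic of the quasi-likelihood test. They come from the fit of the comparison in question.

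The member that passed was Cdk1, the kinase that drives entry into mitosis. It was read at 34.4 and 54.6 CPM in the WT unwounded libraries, above the 30.1 and 29.3 CPM of WT wounded, so that the groups did not overlap. Its log2 fold change was -0.56 ± 0.25 (adjusted p = 0.984 in edgeR). Leaving out replicate 2 of WT unwounded brought it to -0.20, past no threshold. The call was also lost without either wounded library, in DESeq2, in the likelihood ratio test and in a fit of only the 4 libraries compared, although the value stayed between -0.57 and -0.55 in these. Without the GRHL3 KO unwounded library Cdk1 was at -0.55 and again the 1 member past P. A library left alone in its group is assumed to vary like the others.

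The mitotic median depended on the same library. All 22 mitotic genes and 16 of the 19 S-phase genes were higher in WT unwounded replicate 2 than in replicate 1, where 52.9% of all genes were. Without replicate 2 the mitotic median was 0.12 and the S-phase median 0.04, and without replicate 1 they were -0.42 and -0.25, with 6 members and 701 of all genes past an unadjusted P under 0.05, against 680 of all genes with every library. Of the wound keratinocyte markers, replicate 2 had more Krt6a (1642 against 518 CPM) and Krt6b (266 against 39.5 CPM) than replicate 1. Krt16 was at 2009 CPM in replicate 2 against 1790 CPM. Krt17 (1641 against 2101 CPM) and Itga5 (12.3 against 20.6 CPM) were instead lower in replicate 2. The part of these differences in the mitotic values was not tested. Leaving out WT wounded replicate 2 gave -0.33 for the mitotic and -0.17 for the S-phase genes, and leaving out the GRHL3 KO unwounded library -0.18 and -0.05. A direction of wounding for these groups in WT cells is thus set by which unwounded library is used.

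Other mitotic genes showed this spread between replicates. Mki67 was read at 1103 and 1583 CPM in WT unwounded and 1149 and 1224 CPM in WT wounded, a log2 fold change of -0.15 ± 0.18. For Top2a, which untangles sister chromatids, the values were 404 and 543 CPM against 416 and 404 CPM (-0.18 ± 0.18). Ccnb1, the cyclin B1 partner of Cdk1, had 45.0 and 62.0 CPM against 40.4 and 56.4 CPM (-0.12 ± 0.26). In these 3 genes the groups overlapped. Cdc20, an activator of the anaphase-promoting complex, had the most negative value after Cdk1, -0.51 ± 0.32, with 35.7 and 62.4 CPM against 27.8 and 39.5 CPM. It was -0.07 without WT unwounded replicate 2 and -0.85 without replicate 1. Aurka, the centrosomal kinase Aurora A, had the most positive value of all members, 0.68 ± 0.41, with 7.23 and 8.09 CPM against 14.3 and 9.86 CPM, and was 0.39 without WT wounded replicate 1. Besides Cdk1, the kinesin Kif23 was the only mitotic gene with both wounded libraries below both unwounded ones, and Aurka the only one with both above.

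Among S-phase genes, 5 had both WT wounded libraries below both unwounded ones (Cdt1, Mcm2, Mcm4, Tk1 and Uhrf1) and 0 had both above. Of all members 8 lay below in this way, a share of 49 close to the 18.3% of all genes that did. Both wounded libraries lay above both unwounded ones for 2 of the 49 members and for 2128 of the 14045 genes tested. Mcm2, a subunit of the replicative helicase, was read at 105 and 127 CPM unwounded and 101 and 105 CPM wounded (-0.15 ± 0.17), and its value was -0.01 without WT unwounded replicate 2 and -0.27 without replicate 1. Pcna had 132 and 127 CPM against 131 and 119 CPM (-0.03 ± 0.17). Rrm2, the regulated subunit of ribonucleotide reductase, had 60.3 and 86.6 CPM against 68.4 and 92.7 CPM (0.16 ± 0.25). For Pcna and Rrm2 the groups overlapped, and for Mcm2 the difference between them was smaller than that between the unwounded replicates.

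In the G1/S group, Ccnd1 was read at 136 and 88.8 CPM unwounded and 113 and 124 CPM wounded (0.11 ± 0.22). Ccnd2 had 413 and 209 CPM against 358 and 198 CPM (-0.14 ± 0.28). For Ccnd2 replicate 1 was higher than replicate 2 within each group, and for both genes the groups overlapped. Ccne1, which drives the start of replication, had the second most positive value of all members, 0.59 ± 0.45, with 7.23 and 7.26 CPM against 5.95 and 15.5 CPM, so that 1 wounded library carried it. Cdkn1a had 142 and 119 CPM unwounded and 178 and 153 CPM wounded (0.36 ± 0.21), without overlap, and its value was 0.23 without WT unwounded replicate 2. Cdkn1b had 36.5 and 36.7 CPM against 30.7 and 33.0 CPM (-0.18 ± 0.22).

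Further genes of the same pathways were counted in the same way. Of 41 other mitotic genes 32 were negative, with a median of -0.15, and Wee1, the kinase that holds Cdk1 inactive, was the only one past an unadjusted P under 0.05 (0.53 ± 0.22). Of 24 other replication genes 22 were negative, with a median of -0.20, and 0 passed. Of 14 other G1/S and E2F genes 8 were negative and 0 passed. Among 11 tested inhibitors and p53 targets the antiproliferative gene Btg2 passed, at 466 and 474 CPM unwounded and 679 and 535 CPM wounded (0.39 ± 0.16). Cdkn2a had no count in any library.

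Markers of keratinocyte state were read at the same unadjusted threshold. Of 5 wound keratinocyte markers 4 passed as higher, and their summed level was 4469 and 5570 CPM unwounded and 6523 and 9689 CPM wounded, led by Krt17, Krt16 or Krt6a. Of 7 suprabasal markers in the tables, which do not hold Flg, 4 passed as lower (Krt1, Krt10, Dsc1 and Sbsn), with sums of 6359 and 6998 CPM against 3740 and 5414 CPM. Of 6 bulge and outer root sheath markers 3 passed as lower, with sums of 3718 and 3572 CPM against 3009 and 2568 CPM, led by Krt15, and 0 of 6 basal markers passed. Among the markers of other cells, 4 endothelial, 1 leukocyte, 1 fibroblast, 1 mural, 1 melanocyte, 1 hair matrix and 0 erythroid markers passed, all as higher. The part of these shifts in the cell cycle values was not tested.

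**Figure D2:**
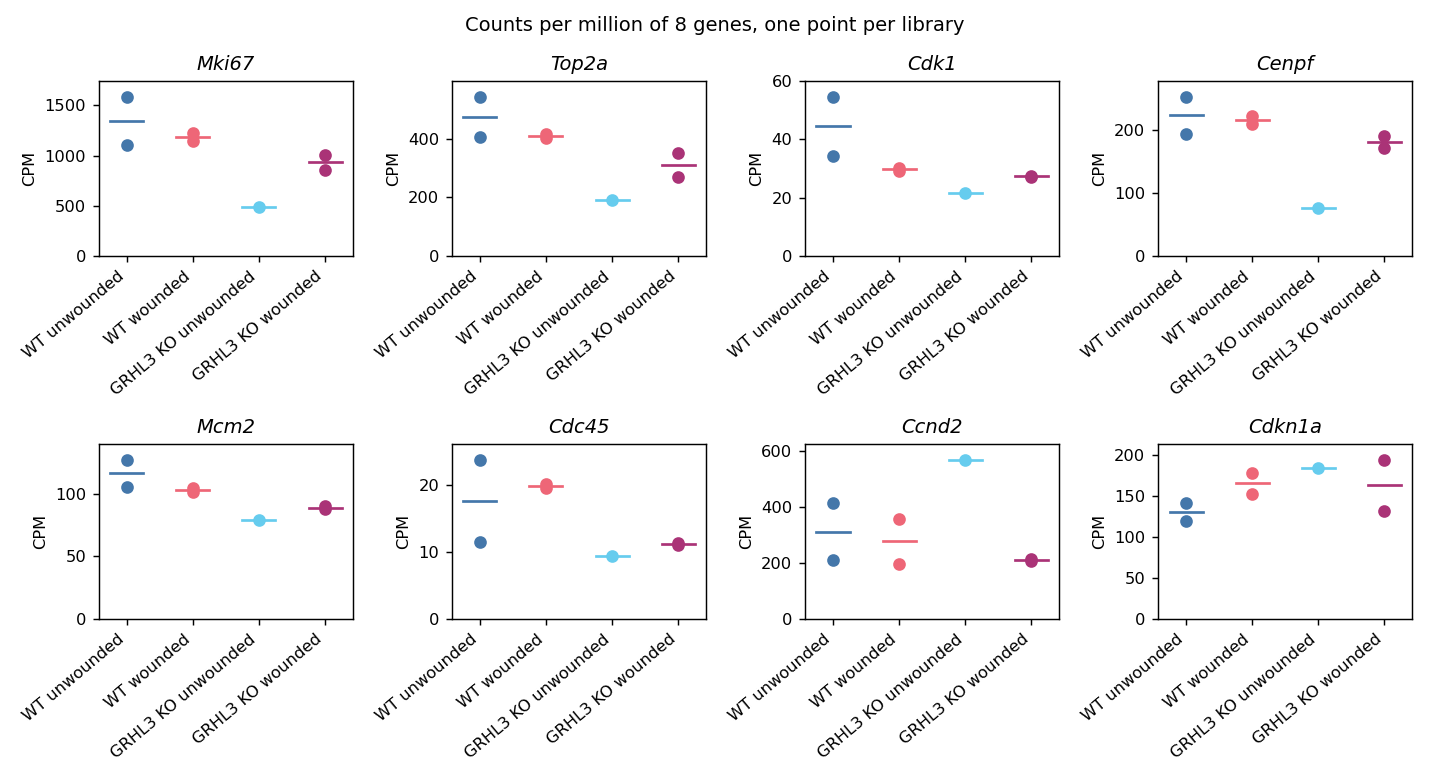
CPM (vertical axes, each from 0) of 8 genes in the 4 conditions (horizontal axes); each point is a library and each line a group mean. For Mki67 the GRHL3 KO unwounded library is at 485 CPM and the other 6 are between 857 and 1583 CPM, while for Ccnd2 the same library is the highest at 570 CPM.

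Wounded keratinocytes labelled GRHL3 KO had lower values of most cell cycle genes than wounded WT keratinocytes, by small amounts. All 19 S-phase genes were negative, with a median log2 fold change of -0.25 and a range of -0.80 to -0.13, and 19 of 22 mitotic genes were negative, with a median of -0.22. Over all genes tested the median was -0.01 and 48.5% were positive. Both GRHL3 KO wounded libraries lay below both WT wounded libraries for 23 members (11 S-phase, 10 mitotic and 2 G1/S genes), where 17.2% of all genes did. Only 1 member passed an unadjusted P under 0.05 as lower and 0 as higher, where 2.08% of all genes were lower and 1.96% higher, a share near the background. At an adjusted p under 0.05 edgeR called 0 members and 0 genes (0%), DESeq2 called 0 members and 3 genes, and the likelihood ratio test 0 members and 1 gene. The WT wounded libraries enter both this comparison and that of wounding in WT cells.

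The call was Cdc45, which joins the MCM helicase with the GINS complex at the fork. It was read at 19.5 and 20.0 CPM in WT wounded and 11.04 and 11.27 CPM in GRHL3 KO wounded, and the replicates of each group nearly coincided. Its log2 fold change was -0.80 ± 0.35 (adjusted p = 1 in edgeR, as for each other member), and the call remained in a fit without the GRHL3 KO unwounded library. The value stayed between -0.83 and -0.76 when any of the 4 compared libraries was left out, but each of these fits lost the call. In WT unwounded the same gene ranged from 11.5 to 23.7 CPM, a spread that covers the difference between the wounded genotypes.

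Other S-phase genes had smaller values. Mcm2 was read at 101 and 105 CPM in WT wounded and 87.7 and 89.8 CPM in GRHL3 KO wounded (-0.19 ± 0.17). Pcna had 131 and 119 CPM against 111 and 111 CPM (-0.15 ± 0.17, and -0.08 without WT wounded replicate 1). In both genes the groups did not overlap, and neither passed the test. Rrm2 had 68.4 and 92.7 CPM against 78.7 and 48.8 CPM and overlapped (-0.31 ± 0.26). Cdt1, which loads the helicase, was the next most negative S-phase gene after Cdc45 at -0.58 ± 0.29, with 33.1 and 33.0 CPM against 27.9 and 15.1 CPM. The helicase subunits Mcm3, Mcm4, Mcm5, Mcm6 and Mcm7 lay between -0.35 and -0.16, the GINS genes Gins1 and Gins2 at -0.13 and -0.40, and the nucleotide enzymes Rrm1, Tyms and Tk1 between -0.39 and -0.17.

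For the mitotic genes, Mki67 was read at 1149 and 1224 CPM in WT wounded and 1008 and 857 CPM in GRHL3 KO wounded (-0.32 ± 0.18). Top2a had 416 and 404 CPM against 352 and 269 CPM (-0.37 ± 0.19). Neither gene overlapped between the genotypes, and neither passed. Bub1, a kinase of the spindle checkpoint, had the most negative mitotic value, -0.63 ± 0.35, with 16.5 and 23.7 CPM against 13.9 and 11.6 CPM, and was -0.33 without WT wounded replicate 2. Cdk1 had 30.1 and 29.3 CPM against 27.5 and 27.2 CPM (-0.10 ± 0.26) and Ccnb1 40.4 and 56.4 CPM against 55.0 and 37.0 CPM (-0.05 ± 0.26). The 3 positive mitotic genes were Ccna2, Cdc20 and Birc5, at 0.06, 0.24 and 0.26, each with overlapping groups.

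Replicates within GRHL3 KO wounded also differed in these genes. Only 3 of 22 mitotic and 5 of 19 S-phase genes were higher in replicate 2, where 56.6% of all genes were. Without replicate 1 the medians were -0.40 for S-phase and -0.33 for mitotic genes, with 8 members and 655 of all genes past an unadjusted P under 0.05, and without replicate 2 they were -0.11 and -0.08, with 0 members and 420 of all genes past it. With every library 567 of all genes passed. Leaving out WT wounded replicate 1 gave 3 members and 557 of all genes past P, and leaving out WT wounded replicate 2 gave medians of -0.15 and -0.13. With either GRHL3 KO wounded library left out, Mki67 ranged from -0.47 to -0.17, Top2a from -0.61 to -0.16, Ccnd1 from -0.64 to -0.14 and Cdkn1b from 0.21 to 0.55. The medians were negative in each of these fits, at sizes that differ by more than 1.5 times. Without the GRHL3 KO unwounded library they were -0.25 for S-phase and -0.22 for mitotic genes.

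In the G1/S group, Ccnd1 was read at 113 and 124 CPM in WT wounded and 104 and 76.2 CPM in GRHL3 KO wounded (-0.37 ± 0.22). Ccnd2 had 358 and 198 CPM against 216 and 206 CPM (-0.37 ± 0.28), which rested on 1 WT library, since without WT wounded replicate 1 its value was 0.11. E2f1, an activator of S-phase genes, was at -0.45 and Cdk2 at -0.03. Ccne2 had the most positive value of the members, 0.47 ± 0.50, with 7.21 and 4.67 CPM against 7.82 and 8.40 CPM, and was 0.81 without WT wounded replicate 1 and 0.21 without WT wounded replicate 2. The inhibitor Cdkn1b was next at 0.38 ± 0.22, with 30.7 and 33.0 CPM against 35.3 and 46.6 CPM. Cdkn1a had 178 and 153 CPM against 194 and 132 CPM, with GRHL3 KO libraries on either side of the WT ones (0.01 ± 0.20).

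Of the further pathway genes, 35 of 41 other mitotic genes were negative (median -0.20), 17 of 24 other replication genes (median -0.12) and 9 of 14 other G1/S and E2F genes (median -0.08). In each of these lists 1 gene passed an unadjusted P under 0.05 as lower and 0 as higher. The kinesin Kif15 was at -0.56 ± 0.23, the catalytic subunit of DNA polymerase epsilon, Pole, at -0.64 ± 0.22 and E2f2 at -0.89 ± 0.34. E2f2 was read at 19.5 and 29.1 CPM in WT wounded and 13.7 and 12.0 CPM in GRHL3 KO wounded. Among 11 inhibitors and p53 targets 0 passed.

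Among markers of keratinocyte state, 4 of 7 suprabasal ones passed the unadjusted threshold as higher in GRHL3 KO (Krt1, Krt10, Dsg1a and Dsc1), with sums of 3740 and 5414 CPM in WT wounded and 6755 and 8424 CPM in GRHL3 KO wounded. Krt10, a keratin of cells that have left the basal layer, had a log2 fold change of 0.87 ± 0.16 (adjusted p = 0.459 in edgeR). Of 5 wound keratinocyte markers 2 passed as lower (Krt17 and Itga5), with sums of 6523 and 9689 CPM against 7025 and 4850 CPM. Of 6 bulge markers 1 passed as lower and of 6 basal markers 0 passed. Of the other cell types, 1 endothelial, 1 mural and 1 hair matrix marker passed as lower, and 0 of the leukocyte, fibroblast, melanocyte and erythroid lists. Their part in the lower cell cycle values was not tested.

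Within the libraries labelled GRHL3 KO, mitotic genes were higher in both wounded libraries than in the unwounded one. All 22 had a positive mean log2 difference, with a median of 0.82 and a range of 0.33 to 1.24, and both wounded libraries lay above the unwounded library for 21 of 22, where 35% of all genes did. The S-phase genes had a median of 0.18, with 14 of 19 positive and both wounded libraries above for 13. Over all genes the median was 0. For 5 members (Mcm2, Tk1, Uhrf1, Cdk1 and Kif23) both wounded libraries lay above here while both WT wounded libraries lay below both WT unwounded ones, where 5.98% of all genes did, and the difference was not tested. There is 1 unwounded library, so no test was made and the difference has no replicate check. It is also the library that stood apart, and GRHL3 KO wounded libraries enter the comparison of genotypes as well.

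By a 2-fold rule, under which both wounded libraries had to be at least 2-fold from the unwounded one, 4 members were higher and 1 lower, where 5.69% of all genes were higher and 3.89% lower. The 4 were Foxm1, a transcription factor of G2 genes, the kinesin Kif20a and the kinetochore genes Cenpe and Cenpf. Cenpf was read at 75.6 CPM unwounded and 190 and 170 CPM wounded, a mean log2 difference of 1.24. Foxm1 had 22.5 CPM against 54.7 and 51.1 CPM (1.22), Cenpe 51.3 CPM against 109 and 116 CPM (1.12) and Kif20a 17.8 CPM against 42.2 and 37.4 CPM (1.14). In each, the wounded libraries were close to each other, and their distance from the unwounded one was set by the rule. The gene that was lower was Ccnd2, at 570 CPM unwounded and 216 and 206 CPM wounded (-1.45). On a single wounded library more members and more of all genes met the 2-fold rule.

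Other members had the following values. Mki67 was read at 485 CPM unwounded and 1008 and 857 CPM wounded (0.93), Top2a at 192 CPM against 352 and 269 CPM (0.67), Ccnb1 at 19.3 CPM against 55.0 and 37.0 CPM (1.21) and Cdk1 at 21.6 CPM against 27.5 and 27.2 CPM (0.33). Mcm10 had the most positive mean difference of all members, 1.30, from 7.78 CPM against 28.0 and 13.6 CPM, and did not meet the rule because of its second wounded library. The other values of the S-phase group were smaller, with Rrm2 at 0.63, Mcm2 at 0.17 and Pcna at -0.05. Cdkn1a and Cdkn1b were at -0.21 and -0.34, Ccnd1 and E2f1 both at -0.28, and the cyclin E genes Ccne1 and Ccne2 both at 0.64.

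Across the 7 libraries, the GRHL3 KO unwounded library had the lowest CPM for 35 of 49 members, where it did for 19.4% of all genes. This included 21 of 22 mitotic genes, all but Aurka, and 13 of 19 S-phase genes. It lay below both WT unwounded libraries for all 19 S-phase genes and for 21 mitotic genes, where 38.2% of all genes did, and at or below 50% of each of them for 14 members (13 mitotic genes and Mcm10), where 9.74% of all genes did. It was the highest library for Ccnd2 and Cdkn1b. Of the 41 other mitotic genes it was lowest for 36, and of the 24 other replication genes for 14. Mybl2, which encodes B-MYB, was read at 5.33 CPM in it and at 13.8 to 28.9 CPM elsewhere, and Btg2 at 1420 CPM in it and at 466 to 800 CPM elsewhere. Mybl2, Gins3 and the inhibitor Cdkn1c were the further pathway genes past the 2-fold rule, all higher in wounded, with Cdkn1c on 4 counts in the unwounded library.

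In the same library the wound keratinocyte markers summed to 2623 CPM against 4469 to 9689 CPM elsewhere, with Krt6b at 4.15 CPM, and the suprabasal markers to 9577 CPM against 3740 to 8424 CPM elsewhere. The bulge and outer root sheath markers summed to 5670 CPM, against 2568 to 3718 CPM in the other 6 libraries. Krt1 and Krt10 made up most of the suprabasal sum and Krt15 most of the bulge sum, and Dsc1 (111 CPM), Ivl (63.8 CPM) and Lhx2 (65.9 CPM) were below both WT unwounded libraries. Low mitotic transcripts thus stood in the same library as high Krt1, Krt10 and Krt15 and low wound keratins. Markers of other cells, at low counts, also passed the 2-fold rule as higher in GRHL3 KO wounded, with 5 of 7 tested endothelial, 3 of 5 fibroblast, 2 of 3 mural, 2 of 3 melanocyte, 2 of 6 leukocyte and 1 of 5 hair matrix markers, while 1 leukocyte marker was lower. The part of any of these in the others was not tested.

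**Figure D3:**
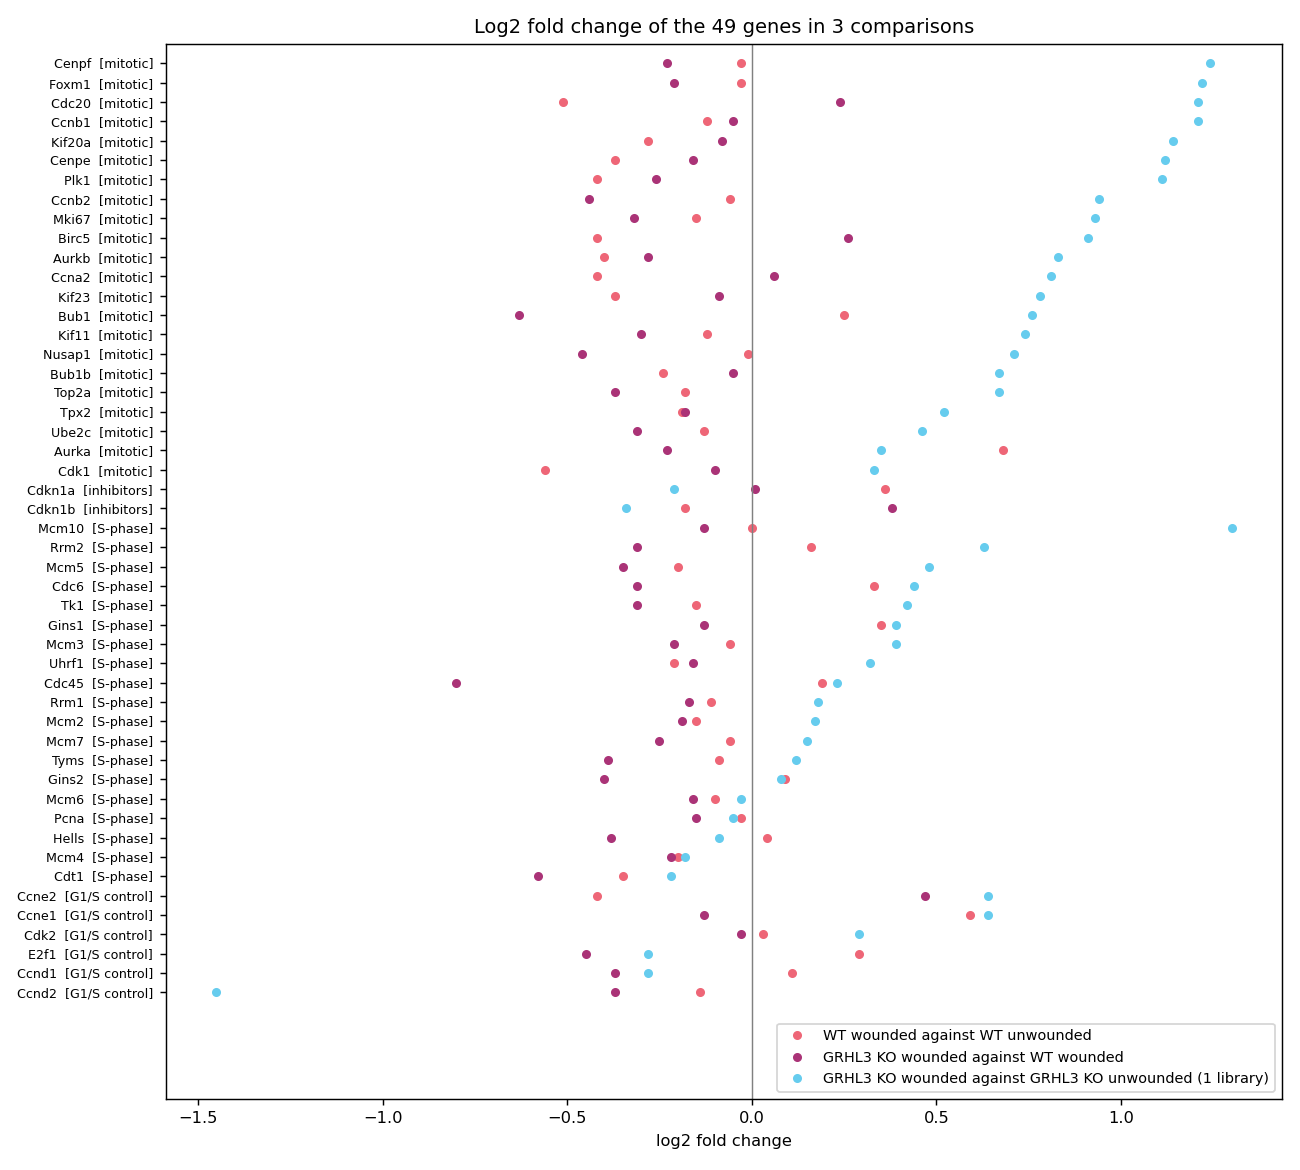
Log2 fold change (horizontal axis) of the 49 genes (vertical axis, with role group in brackets) in 3 comparisons that share libraries; the comparison within GRHL3 KO rests on 1 unwounded library and has no test. The 22 mitotic genes lie between 0.33 and 1.24 in that comparison and around medians of -0.19 and -0.22 in the others.

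Across all 4 wounded and 3 unwounded libraries, with genotype as a term, the mitotic genes had a median log2 fold change of 0.16 with 21 of 22 positive, and the S-phase genes a median of 0.03 with 12 of 19 positive, beside a median of 0.01 over all genes. With a library left out the S-phase median ranged from -0.05, without GRHL3 KO unwounded, to 0.16, without WT unwounded replicate 2. The mitotic median was -0.18 in a fit that left out the GRHL3 KO unwounded library and 0.48 in a fit that left out replicate 2 of WT unwounded, with 13 members and 1125 of all genes past an unadjusted P under 0.05 in the latter, against 929 of all genes with every library. It was 0.39 without WT wounded replicate 1, with 7 members and 1245 of all genes past P, 0.28 without WT wounded replicate 2, 0.08 without GRHL3 KO wounded replicate 1 and 0 without the genotype term. The positive sign in mitotic genes therefore rested on the GRHL3 KO unwounded library and on the genotype term. At an unadjusted P under 0.05, 1 member was lower and 0 were higher, where 2.93% of all genes were lower and 3.69% higher, a share near the background. No member passed an adjusted p under 0.05 in edgeR, DESeq2 or the likelihood ratio test, against 5 of all genes in the edgeR quasi-likelihood test (0.0356%), 126 in DESeq2 and 117 in the likelihood ratio test.

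The call was Ccnd2. It was read at 413, 209 and 570 CPM in unwounded and 358, 198, 216 and 206 CPM in wounded libraries, which overlapped. Its log2 fold change was -0.69 ± 0.27 (adjusted p = 0.631 in edgeR) and became -0.14 without the GRHL3 KO unwounded library. The call was lost there, in DESeq2 at the same value of -0.69, and at -0.62 to -0.55 in fits without WT unwounded replicate 1, WT wounded replicate 2 or either GRHL3 KO wounded library. DESeq2 called 1 member, the kinetochore gene Cenpf, as higher at an unadjusted P under 0.05 (log2 fold change 0.45, adjusted p = 0.563).

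The members other than Ccnd2 did not pass in the edgeR quasi-likelihood test, at adjusted p = 0.765 or above. The most positive were Ccne1 at 0.63 ± 0.35 and Aurka at 0.59 ± 0.32, and the most negative after Ccnd2 was Cdt1 at -0.27 ± 0.23. Ccne1 was 0.20 without WT wounded replicate 2, Aurka 0.39 without GRHL3 KO wounded replicate 1 and Cdt1 -0.15 without GRHL3 KO wounded replicate 2. Mki67 was at 0.26 ± 0.21, Top2a at 0.15 ± 0.19, Ccnb1 at 0.38 ± 0.28 and Cdk1 at -0.22 ± 0.23. The values of Mki67, Top2a and Ccnb1 turned negative without the GRHL3 KO unwounded library. For the S-phase genes, Mcm2 was at -0.02 ± 0.14, Pcna at -0.03 ± 0.13 and Rrm2 at 0.36 ± 0.22. Ccnd1 was at -0.04 ± 0.18, Cdkn1a at 0.14 ± 0.17 and Cdkn1b at -0.24 ± 0.17. With a library left out, Rrm2 ranged from 0.17 to 0.56 and Cdkn1a from 0.02 to 0.37. Of the further pathway genes 1 passed, Cks1b, a small subunit of cyclin-dependent kinases, as higher (0.58 ± 0.27). Of the marker lists, 4 of 5 wound keratinocyte markers passed as higher, 5 of 6 bulge and 3 of 7 suprabasal markers as lower, and 0 basal markers. Also past it as higher were 4 endothelial, 1 leukocyte, 3 fibroblast, 2 mural, 1 melanocyte and 1 hair matrix marker.

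Open chromatin at the gene starts was read from the ATAC-seq peak lists, which held 10769 peaks for WT unwounded, 36872 for WT wounded, 29364 for GRHL3 KO unwounded and 22474 for GRHL3 KO wounded, covering 4425198, 18009879, 13480879 and 10041500 bases. Within 1000 bases of the start a peak was listed for 29, 39, 40 and 34 of the 49 members in that order. The same held for 24.7%, 45.8%, 42.5% and 36.1% of all 21951 protein-coding genes and, among the 12946 of them that passed the RNA filter, for 38%, 68.5%, 64.3% and 54.5%. The members had a peak more often than either background in each list. The lists come from 1 library per condition and differ in length, and differences between the conditions were not tested. The 3 longer lists had more members with a peak than the shortest, and GRHL3 KO unwounded had 40 and WT wounded 39 although the latter list was longer. With each list shortened to its 10769 strongest peaks, 29, 24, 25 and 22 members had one, where 24.7%, 21%, 22.4% and 22.1% of all protein-coding genes did and 38%, 32.1%, 34.3% and 33.6% of those that passed the RNA filter.

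**Figure D4:**
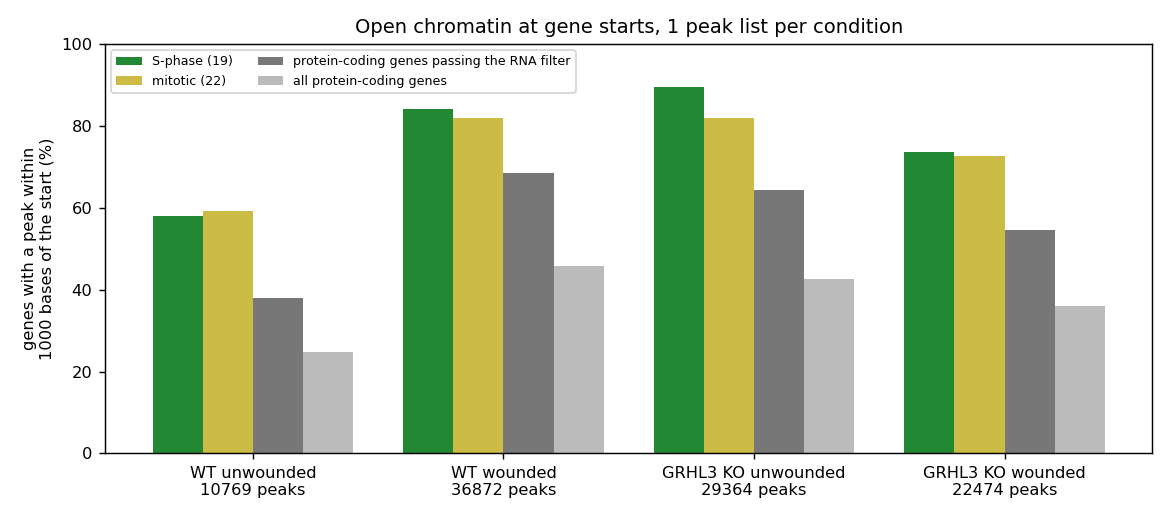
Percent of genes with a listed peak within 1000 bases of the gene start (vertical axis) for each ATAC-seq list (horizontal axis), with bars for the 19 S-phase genes, the 22 mitotic genes and both backgrounds. S-phase and mitotic genes stand at 57.9% and 59.1% for WT unwounded, 84.2% and 81.8% for WT wounded, 89.5% and 81.8% for GRHL3 KO unwounded and 73.7% and 72.7% for GRHL3 KO wounded.

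By role, 11, 16, 17 and 14 of the 19 S-phase genes and 13, 18, 18 and 16 of the 22 mitotic genes had a peak in the lists of WT unwounded, WT wounded, GRHL3 KO unwounded and GRHL3 KO wounded. Start regions of 27 members were listed in all 4 conditions, as were those of 23.3% of all protein-coding genes and 35.8% of those that passed the RNA filter. They included the helicase genes Mcm3, Mcm4, Mcm5, Mcm6 and Mcm10, the fork genes Cdc45, Gins1, Gins2 and Pcna, Rrm2 and the chromatin remodeler Hells among the S-phase genes. Among the mitotic genes they included Mki67, Ccna2, Ccnb1, Cdk1, Aurka, Plk1, Kif11, Kif20a, Cenpe, Cenpf, Tpx2 and Nusap1, and beside these Ccne1, Ccne2, E2f1 and Cdkn1b. No list held a peak at the starts of 8 members, which were Ccnd1, Ccnd2, Cdc6, Tk1, Ccnb2, Aurkb, Birc5 and Cdkn1a, where this held for 51% of all protein-coding genes and 27.3% of those that passed the RNA filter. Ccnd2 and Cdkn1a were among the most abundant members by RNA, so starts without a listed peak were not only those of genes with little RNA. Uhrf1 and Kif23 had a listed peak in GRHL3 KO unwounded alone, with fold enrichments of 3.94 and 3.31, and the Uhrf1 peak did not cover the start. The share of all genes listed there alone was not counted, and the lists differ in length.

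Some genes singled out by RNA had a peak in every condition, and others, beside Uhrf1 and Kif23, did not. Foxm1, Mcm2 and Cdc20 had none in WT unwounded, and Cdt1 and Bub1 none in WT unwounded and GRHL3 KO wounded. Top2a had none in either GRHL3 KO list, and Ccnd2 and Tk1 none in any list. The largest fold enrichment of the peaks at Cdk1 was 4.23, 5.10, 4.34 and 5.25 in the order above, at Cdc45 3.70, 5.53, 4.23 and 4.06 and at Cenpf 6.67, 8.29, 7.19 and 7.06. In the ATAC-seq list of GRHL3 KO unwounded, the condition whose RNA library had the lowest mitotic level, 18 of 22 mitotic genes had a peak. So did 42.5% of all protein-coding genes and 64.3% of those that passed the RNA filter. RNA and ATAC values come from different libraries, and the condition without a second RNA library has none for ATAC either.

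The promoter sequences were searched for the textbook motifs of S-phase and mitotic genes. The genes were chosen by the same textbook roles, so the shares of motifs are not independent of that choice. RefSeq windows of 250 bases before to 50 bases after the start were available for 38 of the 49 members, in 41 windows. Both strands were searched for 3 kinds of motif: E2F (TTTGGCGC, TTTCCCGC, TTTGCCGC or TTTCGCGC), CHR (TTTGAA or TTTAAA, the latter being its own reverse complement) and the CCAAT box (CCAAT). Of 17 windows of mitotic genes 15 held a CHR motif (88.2%), 15 a CCAAT box and 14 both (82.4%), where 27.6%, 37.4% and 10.7% of all 32851 windows did. Of 18 windows of S-phase genes 6 held CHR (33.3%) and 13 CCAAT (72.2%), and 8 held an E2F motif (44.4%), where 2.26% of all windows did. Among mitotic genes 1 window held an E2F motif, that of Cdk1. Whether these letters are bound in these cells was not measured.

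Promoter stretches of 3 mitotic genes and 2 S-phase genes are shown because they carry these motifs at starts with a listed peak. All come from RefSeq on GRCm38.p6, are written 5′ to 3′ on the strand of the gene, lie upstream of and outside annotated exons, and have matches of E2F, CHR and CCAAT motifs on either strand in capitals, with overlapping matches run together. Cdk1 (chr10:69352939-69353112, minus strand) holds all 3 kinds. Cdc20 (chr4:118437353-118437543, minus strand) and Mki67 (chr7:135716451-135716579, minus strand) hold CHR and CCAAT, and Mcm6 (chr1:128359706-128359905, minus strand) and Mcm5 (chr8:75109309-75109467, plus strand) hold E2F and CCAAT.
Cdk1: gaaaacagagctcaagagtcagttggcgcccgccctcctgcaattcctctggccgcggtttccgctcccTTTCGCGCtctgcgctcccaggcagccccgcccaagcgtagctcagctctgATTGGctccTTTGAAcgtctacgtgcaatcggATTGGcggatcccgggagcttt
Cdc20: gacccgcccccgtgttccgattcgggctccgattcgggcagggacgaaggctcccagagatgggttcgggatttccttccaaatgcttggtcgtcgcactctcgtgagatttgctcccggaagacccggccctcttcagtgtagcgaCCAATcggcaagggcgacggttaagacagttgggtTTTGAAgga
Mki67: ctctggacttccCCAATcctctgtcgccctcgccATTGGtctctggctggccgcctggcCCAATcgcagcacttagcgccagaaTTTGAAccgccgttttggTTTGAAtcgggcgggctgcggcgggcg
Mcm6: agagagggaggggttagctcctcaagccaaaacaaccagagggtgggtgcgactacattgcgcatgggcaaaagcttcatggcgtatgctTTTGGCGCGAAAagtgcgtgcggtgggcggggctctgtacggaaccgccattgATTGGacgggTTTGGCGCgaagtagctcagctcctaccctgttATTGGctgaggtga
Mcm5: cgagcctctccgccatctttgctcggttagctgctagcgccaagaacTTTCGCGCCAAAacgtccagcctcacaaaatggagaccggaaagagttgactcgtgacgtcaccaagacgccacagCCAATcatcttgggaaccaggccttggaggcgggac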

How the data were processed

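RNA-seq read counts per gene for 7 libraries were deposited by the authors as whole numbers. The labels name Kallisto and build mm10, but the closing tallies have the form htseq-count writes, so the counting step is not settled. Tallies that name no gene (4.80% to 6.11% of counts per library) were left out. Peak lists were deposited by the authors from MACS2, 1 per condition, with a fold enrichment, −log10 p and q and a display score for each peak. Their names state that no control was used.

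Fits used edgeR 4.0.16 (TMM, filterByExpr, quasi-likelihood test, two-sided, Benjamini-Hochberg over all 14045 genes) in R 4.3.3 with all 7 libraries in 4 groups. For all wounded against all unwounded the fit instead had wounding and genotype as terms. The common biological coefficient of variation was 31.6%. DESeq2 1.42.0, the edgeR likelihood ratio test, other filters and scalings and leaving out libraries were alternatives. Within GRHL3 KO, log2 CPM used a prior count of 2 and no test. Gene starts and exon lengths came from GENCODE vM21, and a peak had to overlap 1000 bases either side of a start by at least 1 base. Given in full are Mki67, Top2a, Ccnb1, Cdk1, Mcm2, Pcna, Rrm2, Ccnd1, Ccnd2, Cdkn1a and Cdkn1b, each member past P, and the 2 largest values in each direction; other members were singled out after their values were seen. Members and lists (4 of further pathway genes, 11 of cell type markers) were chosen with earlier results of these data known.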

Additional observations from a re-analysis of the deposited data

Results flagged for a closer look

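Among 53 values looked at over the 4 wounded libraries, 2 had a library far from the others by Dixon's criterion, which sets its gap to the nearest against the whole range. Chance gives such a gap in about 1 of 20 groups. Ccnd2 was at 357.9 CPM in WT wounded replicate 1 and between 198 and 216 CPM in the other 3 wounded libraries. Tk1, which salvages thymidine, was at 16.68 CPM in GRHL3 KO wounded replicate 1 and between 26.1 and 26.9 CPM in the other 3.

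For 5 genes both WT wounded libraries were below both WT unwounded libraries, while both GRHL3 KO wounded libraries were above the single GRHL3 KO unwounded library, as for 5.98% of all genes. That library was at 78.53 CPM for Mcm2, 15.48 CPM for Tk1, 86.39 CPM for Uhrf1, 21.63 CPM for Cdk1 and 35.41 CPM for Kif23. It stands apart in sex-linked genes, and the difference between the genotypes was not tested.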

How the results depend on the processing

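Counts of calls near 1 moved with some choices, and the cause was not tested. Members with an unadjusted P under 0.05 for wounding in WT were 1 in the reported fit, 0 with DESeq2, the likelihood ratio test or only the 4 libraries compared, 4 without a filter (907 of all genes), and 0 to 6 when a library was left out. Between the wounded genotypes they were 1, with 4 without a filter (776 of all genes) and 0 to 8 with a library left out. Over all wounded against all unwounded they were 1, with 5 without a filter (1192 of all genes) and 0 to 13 with a library left out. The likelihood ratio test called 1117 genes against 680 for wounding in WT and 873 against 567 between the wounded genotypes, and the latter was 420 to 855 with a library left out.

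With the replicate number as a term (replicate block), wounding in WT had 5 members and 1273 genes past P. The labels tie the number to no animal, and over genes the deviations of same-numbered libraries correlated at 0.15 within WT and at -0.04 and -0.01 across genotypes. The GRHL3 KO unwounded library is numbered 2 in its title and 1 in its file. With 0 Y-linked counts, against 2846 and 3589 in GRHL3 KO wounded replicates 1 and 2, it shares an animal with neither. The title was used, and the library enters this term only over all wounded against all unwounded. No other count of calls moved by over 1.5 times under it, and Cdkn1a between the wounded genotypes was at -0.02.

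With a library left out, medians ranged from -0.25 to 0.04 (S-phase) and -0.42 to 0.12 (mitotic) for wounding in WT, and from -0.05 to 0.16 (S-phase) and -0.18 to 0.48 (mitotic) over all wounded against all unwounded. The 2-fold rule within GRHL3 KO gave 5 members, with 6 to 15 on a single wounded library, and 1346 genes, with 2520 to 2657 on a single wounded library and 460 with at least 10 counts in every library. Shortened to equal length, the ATAC-seq lists of WT wounded, GRHL3 KO unwounded and GRHL3 KO wounded had 24, 25 and 22 members.

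Log2 fold changes that changed sign had these ranges with a library left out. For wounding in WT they were -0.09 to 0.03 for Pcna, -0.09 to 0.43 for Rrm2, -0.63 to 0.44 for Ccnd2, -0.38 to 0.12 for Mki67, -0.37 to 0.03 for Top2a, -0.40 to 0.12 for Ccnb1, -0.18 to 0.45 for Ccnd1 and -0.28 to 1.12 for Ccne1. Between the wounded genotypes they were -0.73 to 0.11 for Ccnd2, -0.39 to 0.24 for Ccnb1, -0.33 to 0.29 for Cdkn1a and -0.73 to 0.03 for Rrm2. Over all wounded against all unwounded they were -0.22 to 0.11 for Ccnd1, -0.55 to 0.05 for Cdk1, -0.14 to 0.07 for Mcm2, -0.15 to 0.51 for Mki67, -0.18 to 0.35 for Top2a and -0.11 to 0.67 for Ccnb1, and Top2a was at -0.05 without a genotype term. Leaving out the GRHL3 KO unwounded library from the WT and wounded comparisons was chosen after seeing the data.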
